A study of Mus musculus with 10 samples.

Results

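Genes that mark biliary epithelium and liver progenitor cells were followed through normal mouse liver and liver tumors. They were the keratin genes Krt8, Krt18, Krt7, Krt19 and Krt23, the transcription factor genes Sox9 and Sox4, the genes of the surface proteins EpCAM (Epcam) and CD24 (Cd24a), and the osteopontin gene Spp1. The members were the entries of the deposited table with these symbols. All 10 were found among 16697 genes with values.

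RNA sequencing covered 10 libraries in 3 groups. NL (n = 4) was normal liver without tumor. The c-MYC group (n = 3) was liver tumor tissue from mice whose hepatocytes had received c-MYC and the empty vector pT3-EF1α by hydrodynamic tail vein injection, which forces plasmids from the tail vein into the liver. The c-MYC/FOXO1AAA group (n = 3) was tumor tissue from mice given c-MYC with FOXO1AAA in the same vector, a MYC-tagged FOXO1 that AKT cannot inactivate because its phosphorylated residues were mutated. The EF1α promoter is active in most cell types, so hepatocyte specificity came from the injection and not from the promoter. All samples were labeled genotype WT and strain C57BL/6, whereas the protocol text gives FVB livers for NL and the study's methods name FVB/N mice. One description of the control tumors also lists MCL1 among the injected plasmids and another does not, and ages were not stated. The tissue was whole liver or tumor, so fewer cells of a type and less RNA per cell cannot be told apart. The methods count the tumor samples by injected mice and NL by livers, but the labels tie no library to an animal, so p-values are taken to measure the spread between these samples.

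Libraries held 13.12 to 20.55 M (mega) reads in listed genes. Foxo1, the gene carried by the added plasmid, averaged 7.12 ± 0.532 FPKM over the 4 NL libraries, 5.62 ± 0.721 over the 3 of c-MYC and 83.1 ± 12.8 over the 3 of c-MYC/FOXO1AAA (mean ± SD, the form used throughout). Myc, the mouse entry of the oncogene that names both tumor groups, ran against those names, at 11.1 ± 8.17, 0.704 ± 0.254 and 0.916 ± 0.118 FPKM. Whether reads of the injected c-MYC are counted in this entry is not given in the sources used here, so it does not check the labels. FPKM are fragments scaled to the gene's length and the library's size, so levels of different genes can be compared per length. The labelled tissue held hepatocyte RNA: Alb, which encodes albumin, was at 43170 ± 2530 FPKM in NL, 836 ± 519 in c-MYC (537 without c-MYC 2) and 641 ± 238 in c-MYC/FOXO1AAA. The scaling factors of the libraries were 0.649 to 0.684 in NL, 1.26 to 1.29 in c-MYC and 1.45 to 1.5 in c-MYC/FOXO1AAA. Rescaling every library to the same FPKM total instead shifted the gene-wide median difference, on the log2 scale, from 0.08 to 1.01 for c-MYC versus NL, from 0.03 to 0.20 for c-MYC/FOXO1AAA versus c-MYC and from 0.21 to 1.31 for c-MYC/FOXO1AAA versus NL. Higher calls then went from 51% to 78.8%, from 55.5% to 63.6% and from 54% to 79.5% of all calls. Changes below are relative to the authors' scaling unless another is named.

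Hepatocytes and cholangiocytes, the cells that line bile ducts, descend from a common fetal progenitor. Both make the keratin pair of Krt8 (type II) and Krt18 (type I), whose proteins pair into filaments, while Krt7 (type II) and Krt19 (type I) are switched on as progenitors take the biliary path and are used to mark ducts and ductular reactions. SOX9 and SOX4 take part in bile duct formation, and EpCAM is an adhesion protein of ducts and progenitors. CD24 is a small sugar-coated surface protein of progenitors and many tumors. Osteopontin is a secreted, integrin-binding protein of ductal cells that macrophages, stellate cells and tumors make as well. KRT23 is a type I keratin known from injured liver with ductular reactions.

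The genes did not change together. In the plot of log2 FPKM by library, 4 patterns can be seen. Krt7 and Epcam were high in c-MYC. Spp1, Sox9, Krt19 and Krt23 were low in c-MYC. Sox4 and Cd24a were high in c-MYC/FOXO1AAA, and Krt8 and Krt18 were low there.

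**Figure D1:**
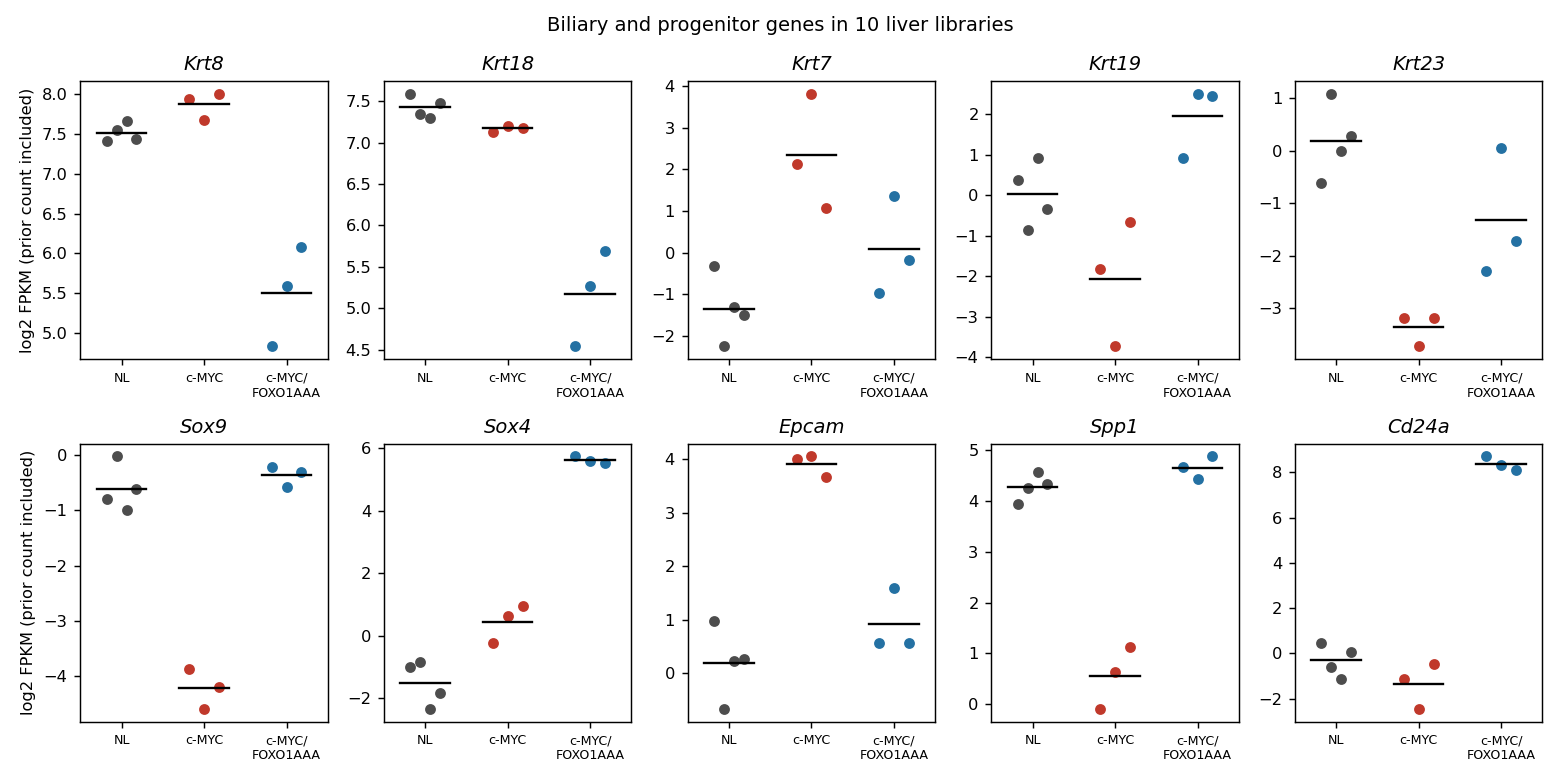
Log2 FPKM, with the authors' prior count included, of the 10 genes in NL (grey, n = 4), c-MYC (red, n = 3) and c-MYC/FOXO1AAA (blue, n = 3). Each point is a library and each line a group mean, and the vertical scales differ between genes. Cd24a and Sox4 show the widest gap between c-MYC/FOXO1AAA and the other groups, and Spp1 and Sox9 drop in c-MYC alone.

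The start regions of the genes were read from the RefSeq promoter windows of GRCm38.p6, which cover 250 bases before a gene's start and 50 after. A window was given for 7 of the 10 genes, and none for Krt19, Sox9 and Cd24a. Both strands were searched for CACGTG (the E-box that MYC can bind), GTAAACA (a forkhead core), GGAATG (a TEAD motif) and AACAAT (a SOX motif). None of these words contains another. The E-box was found in Krt23 and Epcam and the TEAD word in Sox4, and none of the 4 words was in the windows of Krt8, Krt18, Krt7 and Spp1. Among 32851 windows of the same length, 7.15% held CACGTG, 3.65% GTAAACA, 14.7% GGAATG and 10.7% AACAAT. A match describes letters only, and a window without one says nothing about a factor.

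The 250 bases before the start of Sox4, on the minus strand at chr13:28953700-28953949, are shown because the gene gave the second widest fold range of the 10. The capitals mark GGAATG, whose first base lies at position -168 from the start.

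Sox4: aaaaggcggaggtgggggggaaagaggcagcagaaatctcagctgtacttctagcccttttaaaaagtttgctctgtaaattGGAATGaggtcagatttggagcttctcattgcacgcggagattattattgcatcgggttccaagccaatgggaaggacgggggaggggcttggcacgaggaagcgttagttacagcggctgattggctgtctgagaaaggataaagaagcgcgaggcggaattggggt

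The bases before Krt23, on the minus strand at chr11:99493121-99493370, and a 30-base stretch after the start of Epcam, on the plus strand at chr17:87635997-87636026, are shown because both hold the E-box while the genes moved in opposite directions in c-MYC. The capitals mark CACGTG, with its first base at -169 in Krt23 and 31 bases after the start in Epcam.

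Krt23: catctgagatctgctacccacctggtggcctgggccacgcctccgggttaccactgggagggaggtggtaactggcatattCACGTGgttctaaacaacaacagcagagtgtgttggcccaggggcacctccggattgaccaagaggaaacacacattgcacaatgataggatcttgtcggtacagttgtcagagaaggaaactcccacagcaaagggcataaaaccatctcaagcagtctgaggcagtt

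Epcam: ggactgattctgCACGTGagacctgcggcg

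Of the keratins, Krt8 and Krt18 made up nearly all of the signal. These genes of the filament pair lie near each other on chromosome 15 and are read away from each other, Krt8 on the minus strand (chr15:101996698-102004482) and Krt18 on the plus strand (chr15:102028180-102032027), with 23698 bp between their starts. Krt8 stood at 171, 187, 204 and 174 FPKM in NL 1 to 4, at 245, 204 and 258 in c-MYC 1 to 3 and at 28.4, 48.0 and 67.4 in c-MYC/FOXO1AAA 1 to 3. Every c-MYC/FOXO1AAA library lay below every other library, and the lowest c-MYC library lay just above the highest NL library. Means were 184 ± 15.1 (SD, n = 4), 236 ± 28.1 (SD, n = 3) and 47.9 ± 19.5 (SD, n = 3). Krt8 fell in c-MYC/FOXO1AAA against c-MYC (log2 fold change -2.38, SE 0.25, limma adjusted p = 0.000124) and against NL (-2.02, SE 0.23, adjusted p = 0.000146). The second call was lost at the same FPKM total (-0.93, adjusted p = 0.0931). For c-MYC versus NL the log2 fold change was 0.35 (SE 0.23, adjusted p = 1), and it was 1.28 with an adjusted p of 0.00724 at the same FPKM total.

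Krt18 stood at 192, 163, 157 and 178 FPKM in NL 1 to 4, at 140.2, 147 and 145 in c-MYC 1 to 3 and at 23.2, 38.6 and 51.6 in c-MYC/FOXO1AAA 1 to 3. The 3 groups did not overlap, and the c-MYC libraries were closest to one another. Krt18 fell in c-MYC/FOXO1AAA against c-MYC (log2 fold change -2.0, SE 0.23, limma adjusted p = 0.000326) and against NL (-2.26, SE 0.21, adjusted p = 2.28e-05). Between c-MYC and NL its log2 fold change of -0.26 (SE 0.21, adjusted p = 1) was not past the threshold, and it turned to 0.67 at the same FPKM total and to 0.32 after quantile normalization. In both genes c-MYC/FOXO1AAA 1 was the lowest and c-MYC/FOXO1AAA 3 the highest library of its group.

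Krt7 followed c-MYC. It was listed at 0.774, 0.181, 0.375 and 0.327 FPKM in NL 1 to 4, 4.35, 14.1 and 2.09 in c-MYC 1 to 3 and 0.486, 2.56 and 0.859 in c-MYC/FOXO1AAA 1 to 3. All c-MYC libraries were above all NL libraries, while c-MYC/FOXO1AAA overlapped both. Krt7 rose in c-MYC versus NL (log2 fold change 3.69, SE 0.72, limma adjusted p = 0.00237). Its mean there, 6.86 ± 6.40 FPKM (SD, n = 3), rested on c-MYC 2 and was 3.22 without it. In c-MYC/FOXO1AAA versus c-MYC its log2 fold change of -2.26 (SE 0.77, adjusted p = 0.0929) was not called, but it was called without c-MYC 3 (-2.90, adjusted p = 0.0318) and without c-MYC/FOXO1AAA 2 (-2.91, adjusted p = 0.0321). The c-MYC/FOXO1AAA mean was 1.3 ± 1.11 FPKM (SD, n = 3) and 0.673 without c-MYC/FOXO1AAA 2, and its log2 fold change against NL was 1.42 (SE 0.72, adjusted p = 0.224), or 2.52 with an adjusted p of 0.0171 at the same FPKM total.

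Krt19 moved the other way. Its levels were 1.21, 0.471, 1.82 and 0.707 FPKM in NL 1 to 4, 0.207, 0 and 0.553 in c-MYC 1 to 3 and 1.80, 5.57 and 5.37 in c-MYC/FOXO1AAA 1 to 3. No c-MYC/FOXO1AAA library fell to the c-MYC range, and NL overlapped both groups. Krt19 rose in c-MYC/FOXO1AAA versus c-MYC (log2 fold change 4.03, SE 0.76, limma adjusted p = 0.00299). It was not called in c-MYC versus NL (-2.09, SE 0.71, adjusted p = 0.0649) or in c-MYC/FOXO1AAA versus NL (1.94, SE 0.71, adjusted p = 0.0768). The former was called without NL 2 (-2.38, adjusted p = 0.0469) or c-MYC 3 (-2.79, adjusted p = 0.0142), and the latter without c-MYC 2 (1.94, adjusted p = 0.0319), c-MYC 3 (1.94, adjusted p = 0.0475) or c-MYC/FOXO1AAA 1 (2.46, adjusted p = 0.0370). The latter was also called at the same FPKM total (3.03, adjusted p = 0.00423) and with pseudocounts of 0.1 (1.83, adjusted p = 0.0448) and 1 FPKM (1.27, adjusted p = 0.0430). The c-MYC level came from 22 reads in all, 16 of them the highest library, and its mean of 0.253 FPKM was 0.104 without c-MYC 3.

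Krt23 was detected in NL and nearly absent from c-MYC. NL 1 to 4 held 0.579, 2.03, 0.916 and 1.14 FPKM, c-MYC 1 to 3 held 0.0348, 0 and 0.0348, and c-MYC/FOXO1AAA 1 to 3 held 0.130, 0.963 and 0.228. The c-MYC libraries carried 2 reads in all against 70 in NL, a ratio of 49.6 for NL over c-MYC with an exact 95% interval of 13.2 to 418 that covers counting error only. Krt23 fell in c-MYC versus NL (log2 fold change -3.54, SE 0.56, limma adjusted p = 0.000517), a call that a pseudocount of 1 FPKM removed (-0.99, adjusted p = 0.0995). The values for c-MYC/FOXO1AAA versus c-MYC (2.04, SE 0.59, adjusted p = 0.0579) and for c-MYC/FOXO1AAA versus NL (-1.50, SE 0.56, adjusted p = 0.108) were not called. Without NL 2 (2.04, adjusted p = 0.0488) or c-MYC/FOXO1AAA 1 (2.53, adjusted p = 0.0226) the first of these passed, and without c-MYC/FOXO1AAA 2 (-2.18, adjusted p = 0.00791) the second did. That library held 45 of the group's 57 reads, and the group mean of 0.440 FPKM was 0.179 without it.

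Summed by type, the 5 keratins kept a near even balance in NL and shifted toward type II in c-MYC. The type I sum (Krt18, Krt19 and Krt23) was 175 ± 15.5 FPKM in NL, 144 ± 3.51 in c-MYC and 42.5 ± 16.2 in c-MYC/FOXO1AAA. The type II sum (Krt7 and Krt8) was 184.5 ± 15, 243 ± 21.7 and 49.2 ± 19.7 FPKM. Both sums leave out other keratins, so the ratio and shares below hold for these 5 genes only. The type I gene Krt17, at 0, 0.280 and 13.4 mean FPKM in the same order of groups, was above Krt19 in c-MYC/FOXO1AAA. The ratio of type II to type I ranged from 0.887 to 1.28 in NL, from 1.49 to 1.79 in c-MYC and from 1.12 to 1.19 in c-MYC/FOXO1AAA, so that c-MYC lay above both other groups without overlap. Scaling does not touch this ratio, which is taken within a library, and it was not tested. Krt19 supplied 0.610% ± 0.380 of the type I sum in NL, 0.176% ± 0.191 in c-MYC and 9.63% ± 2.58 in c-MYC/FOXO1AAA, where its share was above that of every other library. Without c-MYC 3 the c-MYC share of Krt19 was 0.0739%. Krt7 supplied 0.229% ± 0.153, 3.00% ± 3.03 and 2.67% ± 2.08 of the type II sum in the same order of groups. These Krt7 shares rested on 1 library each in the tumors and were 1.27% without c-MYC 2 and 1.47% without c-MYC/FOXO1AAA 2.

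**Figure D2:**
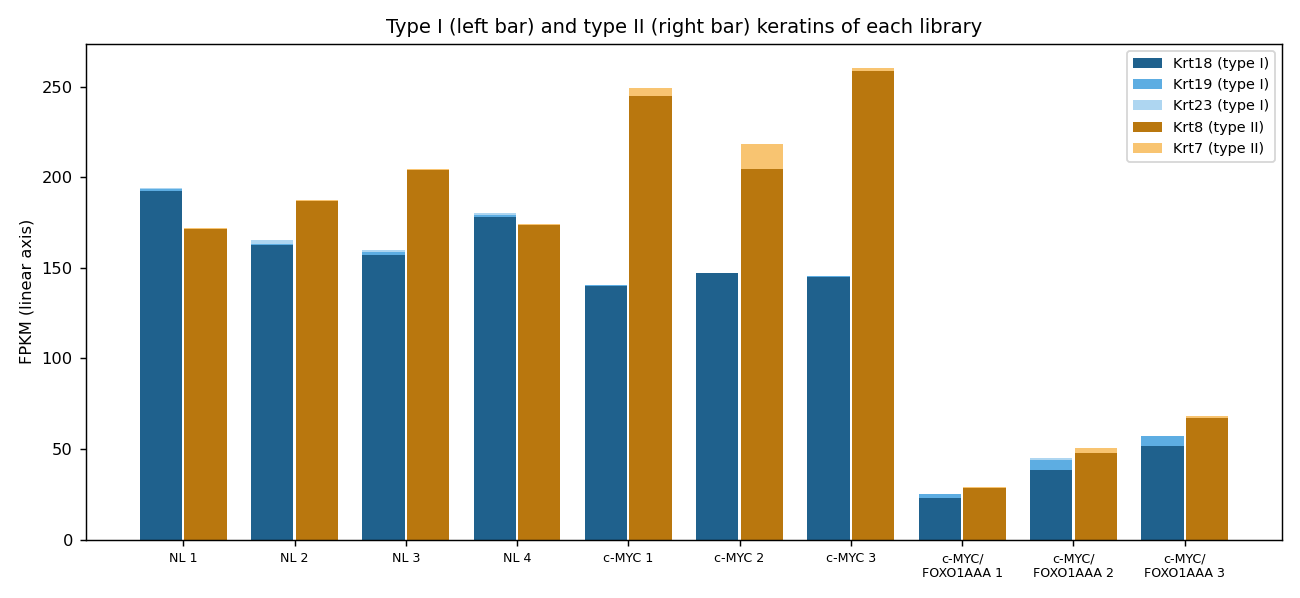
FPKM, on a linear axis from 0, of type I keratins (blue, left bar: Krt18, Krt19, Krt23) and type II keratins (orange, right bar: Krt8, Krt7) in each of the 10 libraries. The c-MYC libraries show a taller type II bar in all 3 cases, and both bars are short in the c-MYC/FOXO1AAA libraries.

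The SOX genes took different courses. Sox9 was low throughout, at 0.547, 0.949, 0.471 and 0.620 FPKM in NL 1 to 4, 0.0395, 0.0128 and 0.0263 in c-MYC 1 to 3 and 0.825, 0.640 and 0.777 in c-MYC/FOXO1AAA 1 to 3. All c-MYC libraries were below all others, and NL and c-MYC/FOXO1AAA overlapped. Because no library reached 1 FPKM, the authors' prior count included, Sox9 did not pass the filter on low values and was not tested. Its 6 reads in c-MYC stood against 104 in NL, a ratio of 24.6 (exact 95% interval 10.9 to 68.5, counting error only), and against 226 in c-MYC/FOXO1AAA, a ratio of 28.2 (12.8 to 77.8). In a fit without the filter its log2 fold change was -3.60 for c-MYC versus NL (SE 0.33, limma adjusted p = 7.86e-06), 3.84 for c-MYC/FOXO1AAA versus c-MYC (SE 0.35, adjusted p = 1.41e-05) and 0.24 for c-MYC/FOXO1AAA versus NL (SE 0.33, adjusted p = 1).

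Sox4 stepped up in each tumor group. It measured 0.472, 0.531, 0.171 and 0.256 FPKM in NL 1 to 4, 0.830, 1.54 and 1.90 in c-MYC 1 to 3 and 53.3, 47.9 and 46.4 in c-MYC/FOXO1AAA 1 to 3. The 3 groups did not overlap. The mean of 49.2 ± 3.60 FPKM (SD, n = 3) in c-MYC/FOXO1AAA was 34.6 times that in c-MYC (1.42 ± 0.543) and 138 times that in NL (0.357 ± 0.172). Sox4 rose in c-MYC/FOXO1AAA against c-MYC (log2 fold change 5.17, SE 0.41, limma adjusted p = 4.69e-06) and against NL (7.13, SE 0.38, adjusted p = 5.89e-08). It also rose in c-MYC versus NL (1.96, SE 0.38, adjusted p = 0.00578), a call lost with a pseudocount of 1 FPKM (0.81, adjusted p = 0.207).

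Among the surface protein genes, Epcam was highest in c-MYC. Its levels were 1.91, 0.572, 1.10 and 1.15 FPKM in NL 1 to 4, 16.1, 16.5 and 12.6 in c-MYC 1 to 3 and 1.41, 2.97 and 1.43 in c-MYC/FOXO1AAA 1 to 3. The c-MYC libraries stood apart from all others, and NL and c-MYC/FOXO1AAA overlapped. Epcam rose in c-MYC versus NL (log2 fold change 3.71, SE 0.37, limma adjusted p = 1.79e-05) and fell in c-MYC/FOXO1AAA versus c-MYC (-3.00, SE 0.40, adjusted p = 0.000354). Against NL the c-MYC/FOXO1AAA value was 0.71 (SE 0.37, adjusted p = 0.53) and at the same FPKM total 1.81 (adjusted p = 0.00485).

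Cd24a gave the widest range of the 10 genes. It was at 1.3, 0.584, 0.395 and 0.982 FPKM in NL 1 to 4, 0.390, 0.117 and 0.660 in c-MYC 1 to 3 and 418, 324 and 275 in c-MYC/FOXO1AAA 1 to 3. The c-MYC/FOXO1AAA libraries held 9788 to 18694 reads of the gene and the other 7 libraries 4 to 26. At a mean of 339 ± 72.7 FPKM (SD, n = 3) Cd24a was above 98.6% of the tested genes in c-MYC/FOXO1AAA, 871 times its c-MYC mean and 416 times its NL mean. Without c-MYC 3 the c-MYC mean of 0.389 FPKM was 0.253. Cd24a rose in c-MYC/FOXO1AAA against c-MYC (log2 fold change 9.73, SE 0.51, limma adjusted p = 2.89e-07) and against NL (8.69, SE 0.48, adjusted p = 9.89e-08), and c-MYC versus NL was not called (-1.04, SE 0.48, adjusted p = 0.310).

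Spp1 was low in c-MYC only. NL 1 to 4 held 15.4, 18.9, 23.8 and 20.2 FPKM, c-MYC 1 to 3 held 0.850, 1.47 and 2.08, and c-MYC/FOXO1AAA 1 to 3 held 25.4, 21.5 and 29.4. NL and c-MYC/FOXO1AAA overlapped, and every c-MYC library was far below both. Spp1 fell in c-MYC versus NL (log2 fold change -3.73, SE 0.26, limma adjusted p = 1.19e-06) and rose in c-MYC/FOXO1AAA versus c-MYC (4.11, SE 0.27, adjusted p = 1.92e-06). For c-MYC/FOXO1AAA versus NL the value was 0.38 (SE 0.26, adjusted p = 0.973), and at the same FPKM total it was 1.48 (adjusted p = 0.00505).

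Counted over the 9 tested genes, c-MYC versus NL gave 3 higher (Krt7, Sox4 and Epcam) and 2 lower (Krt23 and Spp1), where 24.5% of all 14017 tested genes were called higher and 23.6% lower. In c-MYC/FOXO1AAA versus c-MYC, 4 were higher (Krt19, Sox4, Spp1 and Cd24a) and 3 lower (Krt8, Krt18 and Epcam), beside 15.9% and 12.7% of all tested genes. In c-MYC/FOXO1AAA versus NL, 2 were higher (Sox4 and Cd24a) and 2 lower (Krt8 and Krt18), beside 31.2% and 26.6%. The comparisons share libraries, and their values stand side by side for this reason without a test between them. At the same FPKM total the last comparison had 6 higher and 1 lower, beside 8129 higher and 2099 lower among all 14017 tested genes. The plot of fold changes shows the order of sizes, with Cd24a and Sox4 at the upper end and Epcam, Spp1 and Krt19 pointing in opposite directions in the first and second comparison.

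**Figure D3:**
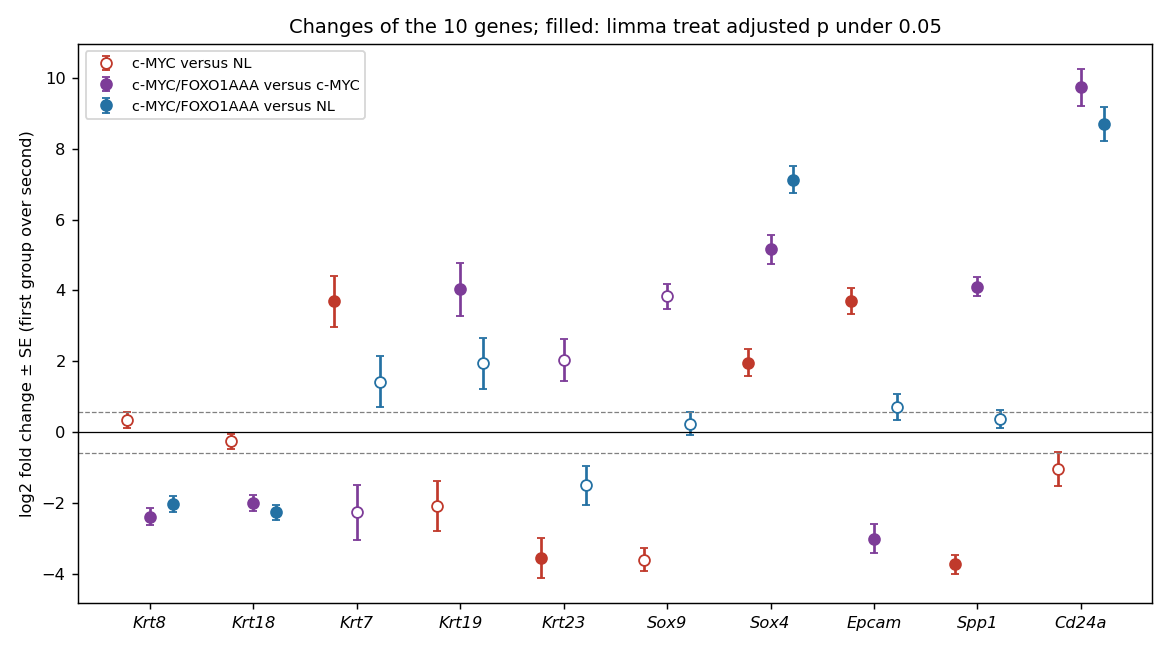
Log2 fold change with its SE for the 10 genes in c-MYC versus NL (red), c-MYC/FOXO1AAA versus c-MYC (purple) and c-MYC/FOXO1AAA versus NL (blue). Filled points passed the limma test for a change above 1.5-fold (dashed lines), open points did not, and Sox9 is shown open with the SE of the fit without a filter because it was not tested. Cd24a reaches 9.73 and Sox4 7.13, and the lowest called value is -3.73 for Spp1.

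Likeness was measured as the root mean square difference of log2 FPKM over the 10 libraries after centering each gene on its mean, among 13124 genes. Pparg (0.11) and Cadm1 (0.18) were nearest to Krt18, and Nfil3 (0.25) and Plscr1 (0.26) to Krt8. St14 (0.66) and Epcam (0.71) were nearest to Krt7, and Tnnc1 (0.37) and Unc5b (0.39) to Epcam. The nearest genes were Pros1 (0.25) and Mdfic (0.33) for Spp1, Lrrk1 (0.27) and Wipi1 (0.36) for Sox9, Samd5 (0.73) and Scarf2 (0.74) for Krt19, and Adam11 (0.51) and Sox6os (0.54) for Krt23. Zfyve28 (0.45) and Neto2 (0.54) came closest to Sox4. For Cd24a the closest were Nlrp10 (0.55), at 14.7 FPKM in c-MYC/FOXO1AAA and at or near 0 elsewhere, and Slc38a5 (0.68), at 51.1 FPKM there.

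Other genes of cholangiocytes were split as well. Of 12 tested, 6 were higher and 2 lower in c-MYC versus NL (median log2 fold change 2.30, against 0.08 for all genes), and 2 were higher and 6 were lower in c-MYC/FOXO1AAA versus c-MYC (median -1.83, against 0.03). The shares of all tested genes were 24.5% higher and 23.6% lower in the former comparison, and 15.9% and 12.7% in the latter. Cldn7, a tight junction claudin, rose and fell like Epcam (1.09, 29.4 and 2.82 mean FPKM in NL, c-MYC and c-MYC/FOXO1AAA), as did Ggt1, the gamma-glutamyltransferase gene (5.56 ± 4.77, 129 ± 7.95 and 3.15 ± 4.25). The NL mean of Ggt1 was 3.4 without NL 1, and its c-MYC/FOXO1AAA mean was 0.696 without c-MYC/FOXO1AAA 3. Tspan8, a tetraspanin gene, and Ddr1, a collagen receptor gene, rose in c-MYC/FOXO1AAA versus c-MYC like Cd24a and Sox4, by 5.80 and 3.49 on the log2 scale (adjusted p = 7.52e-06 and 0.000113). The 2 lower genes in c-MYC versus NL were Aqp1 (28.1 ± 1.54, 3.75 ± 2.36 and 5.42 ± 0.452 FPKM) and Wfdc2 (4.07 ± 2.53, 0.549 ± 0.548 and 1.51 ± 1.09). Pkhd1, the fibrocystin gene and a defining marker, did not reach the filter, with means of 0.359, 0.170 and 0.0440 FPKM.

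Notch and Hippo signaling take part in the choice of a biliary fate. Of 17 tested genes of these pathways, 9 were higher and 1 was lower in c-MYC/FOXO1AAA versus c-MYC (median log2 fold change 1.36, against 0.03 for all genes). In c-MYC versus NL 8 were higher and 2 lower (median 0.60, against 0.08). Among all tested genes 15.9% were higher and 12.7% lower in the former comparison, and 24.5% and 23.6% in the latter. Jag1, a Notch ligand of duct formation, had means of 0.807, 0.279 and 1.75 FPKM in NL, c-MYC and c-MYC/FOXO1AAA. Sox9, Spp1 and Krt19 share this order of means, though their NL and c-MYC/FOXO1AAA libraries overlapped. Hes1, a Notch target, rose in c-MYC/FOXO1AAA versus c-MYC (log2 fold change 1.36, SE 0.27, adjusted p = 0.0279), and so did Lfng, which modifies Notch (3.70, SE 0.35, adjusted p = 2.22e-05). The TEAD factor gene Tead2 stepped up from 0.305 to 4.37 and 32.6 FPKM, in the order seen for Sox4, and the YAP target Ctgf from 1.70 in c-MYC to 42.0 in c-MYC/FOXO1AAA (log2 fold change 4.69, SE 0.42, adjusted p = 1.38e-05). Notch2, a receptor of duct formation, was not called in any comparison with the authors' scaling, with means of 3.92, 5.99 and 4.68 FPKM in NL, c-MYC and c-MYC/FOXO1AAA.

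**Figure D4:**
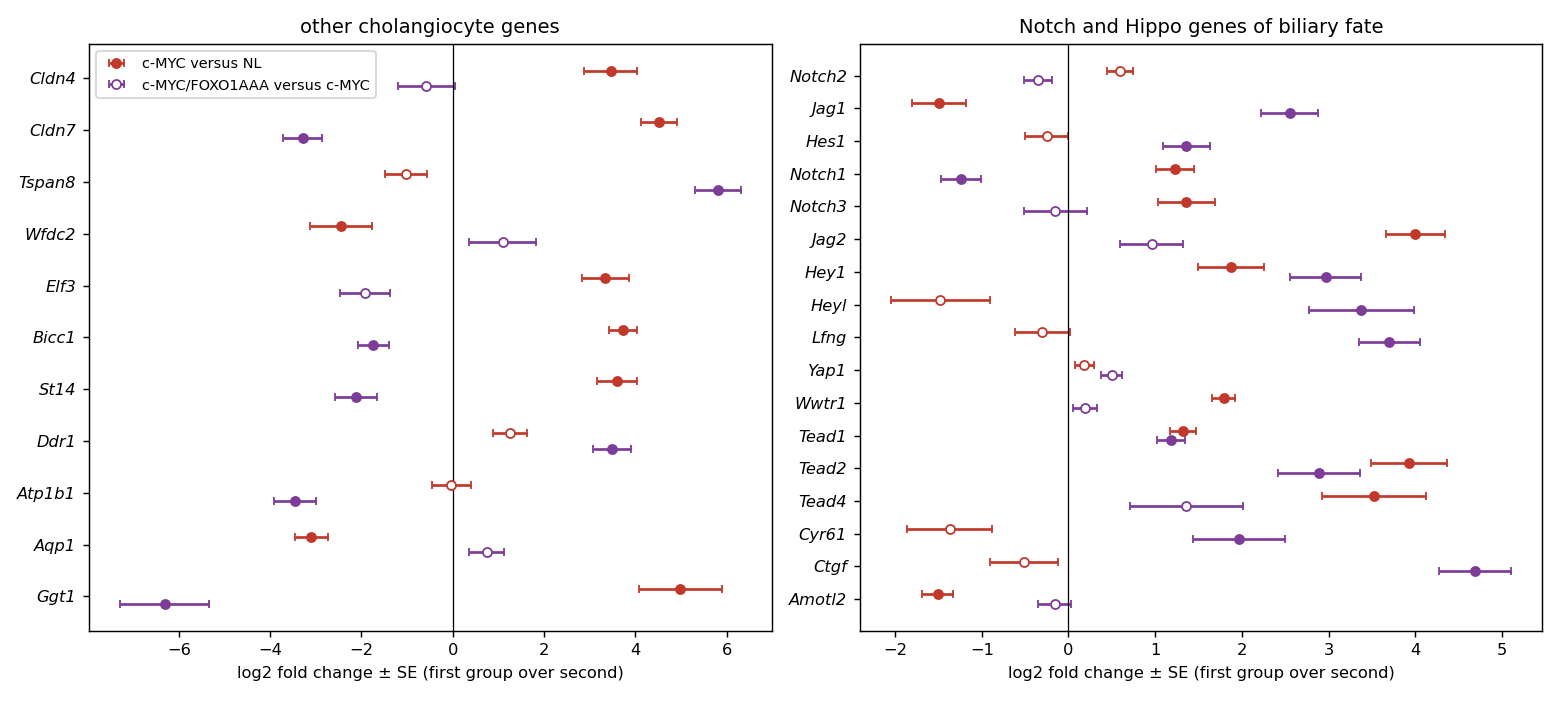
Log2 fold change with its SE for the tested genes among other cholangiocyte genes (left, 11 of 12 genes) and Notch and Hippo genes (right, 17 genes), in c-MYC versus NL (red) and c-MYC/FOXO1AAA versus c-MYC (purple), which share the c-MYC libraries. Filled points passed the limma test; Cldn7, Ggt1, Bicc1 and St14 lie right of 0 in red and left of 0 in purple, and Ctgf, Lfng, Heyl and Tead2 lie right of 0 in purple.

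Fetal liver and progenitor genes were mostly higher than NL in both tumor groups. Of 11 tested, 8 were higher and 1 lower in c-MYC versus NL (median log2 fold change 5.32), and 8 higher and 0 lower in c-MYC/FOXO1AAA versus NL (median 3.55, against 0.21 for all genes). Over all tested genes the shares were 24.5% higher and 23.6% lower in the former, and 31.2% and 26.6% in the latter. Afp, the fetal albumin relative, was at 73.4 ± 69.3, 2098 ± 604 and 44.9 ± 58.3 FPKM in NL, c-MYC and c-MYC/FOXO1AAA, highest in c-MYC like Epcam and Krt7. Its NL mean was 41.5 without NL 1 and its c-MYC/FOXO1AAA mean 11.4 without c-MYC/FOXO1AAA 3. Igf2 stayed high, at 11.4, 480 and 286 mean FPKM, and Gpc3, a glypican of fetal liver, was at 0.980, 0.897 and 16.8, like Cd24a low in the first 2 groups. The NL mean of Igf2 was 5.88 without NL 1, and Gpc3 was at 0.523 without c-MYC 3 and at 9.94 without c-MYC/FOXO1AAA 3. The summed level of the list ranged from 114 to 1620 FPKM in NL, highest in NL 1, the NL library with the highest Krt7, Epcam and Cd24a. Hepatocyte genes fell: 14 of 15 were lower in c-MYC versus NL (median -3.67), and 9 were lower and 3 were higher in c-MYC/FOXO1AAA versus c-MYC (median -2.37). In the latter comparison 12.7% of all tested genes were lower and 15.9% higher. Hnf4a, the hepatocyte master regulator, was like Krt8 and Krt18 lowest in c-MYC/FOXO1AAA and went from 183 ± 14.3 in NL and 94.3 ± 15.5 in c-MYC to 7.15 ± 3.47 FPKM in c-MYC/FOXO1AAA (log2 fold change against c-MYC -3.81, SE 0.27, adjusted p = 3.13e-06).

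Of 9 tested keratin partners and other filament genes, 3 passed as higher and 0 as lower in c-MYC versus NL (median log2 fold change 0.59), and 2 passed as higher and 4 as lower in c-MYC/FOXO1AAA versus c-MYC (median -0.35). Over all tested genes the shares were 24.5% and 23.6% in the former, and 15.9% and 12.7% in the latter. The 3 included Krt17 (limma adjusted p = 0.0436). Their number was 2 with a replicate block, with a pseudocount of 0.1 FPKM or without any 1 NL library, and 7 at the same FPKM total. Krt17, a type I keratin of stressed epithelium, was at 0 in all NL libraries, at a mean of 0.280 FPKM in c-MYC and at 13.4 ± 9.18 in c-MYC/FOXO1AAA, where it rose against c-MYC (log2 fold change 5.37, SE 0.59, adjusted p = 5.11e-05). Without c-MYC 3 its c-MYC mean was 0.104, and without c-MYC/FOXO1AAA 2 its c-MYC/FOXO1AAA mean was 8.25. Vim, the mesenchymal filament vimentin, was at 10.1, 23.9 and 113 mean FPKM. The desmosome gene Dsp, whose protein anchors keratin filaments, fell in c-MYC/FOXO1AAA versus c-MYC with Krt8 and Krt18 (-1.83, SE 0.22, adjusted p = 0.000497). Ppl and Evpl, the periplakin and envoplakin genes, rose in c-MYC versus NL and fell in c-MYC/FOXO1AAA versus c-MYC like Epcam, with mean FPKM of 3.08, 32.1 and 1.89 for Ppl. Krt20 was below the filter, at 0.0380 FPKM in NL (0.0193 without NL 1), 2.27 in c-MYC and 0.0265 in c-MYC/FOXO1AAA, where reads were in c-MYC/FOXO1AAA 3 alone. Among 6 tested relatives of Sox9 and Sox4, 2 were higher and 2 lower in c-MYC versus NL, and 2 higher and 1 lower when c-MYC/FOXO1AAA was set against c-MYC. The shares of all tested genes given above for the filament genes stand beside these counts too. Sox12, of the same subgroup as Sox4, stood at 3.66, 17.9 and 28.1 mean FPKM, and Sox13 at 3.27, 11.1 and 0.846.

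Receptors of osteopontin were compared beside Spp1. The listed partners of CD24 were not tested, because Siglecg had no entry and Selp did not pass the filter. Of 7 tested osteopontin receptor genes, 4 passed as higher and 0 as lower in c-MYC/FOXO1AAA versus c-MYC. Their median log2 fold change was 1.08, against 0.03 for all genes, of which 15.9% passed as higher and 12.7% as lower there. Cd44, an osteopontin receptor, was at 0.749 ± 0.289, 0.765 ± 0.275 and 8.48 ± 1.14 FPKM and rose there (log2 fold change 3.48, SE 0.38, adjusted p = 7.31e-05), as did the integrin genes Itgb3 (4.67, SE 0.36, adjusted p = 4.52e-06), Itga4 (2.90, SE 0.27, adjusted p = 3.39e-05) and Itgav (1.08, SE 0.14, adjusted p = 0.0119).

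Markers of other liver cells that also make some of these genes differed in how far they moved with the groups. The summed level of 10 stellate cell and fibroblast genes was 94.6 to 120 FPKM in NL, 17.3 to 55.7 in c-MYC and 482 to 499 in c-MYC/FOXO1AAA. This was the order of group means seen for Spp1, Sox9, Krt19 and Cd24a. In those genes NL was not apart from both tumor groups: it overlapped c-MYC/FOXO1AAA for Spp1, Sox9 and Krt19, and c-MYC for Krt19 and Cd24a. In c-MYC/FOXO1AAA versus c-MYC 6 of the 10 stellate cell and fibroblast genes passed as higher and 0 as lower (median log2 fold change 2.79). Dcn was the largest term of the sum in NL and c-MYC/FOXO1AAA, at 69.7, 4.52 and 236 mean FPKM (2.81 in c-MYC without c-MYC 3). The single genes did not share the summed order. Dcn, Des, Lum and Lrat were lowest in c-MYC, Rgs5 in c-MYC/FOXO1AAA, and Pdgfrb, Col1a1, Col1a2, Col3a1 and Acta2 in NL. Of the list's defining markers, Pdgfrb was at 2.07, 2.45 and 13.9 mean FPKM, Col1a1 at 2.03, 8.24 and 25.1 and Lrat, of quiescent stellate cells, at 3.83, 0.0746 and 0.256 (0.167 without c-MYC/FOXO1AAA 2). The 5 mesothelial genes, of cells on the liver surface that carry keratins, summed to 2.18 to 5.89 FPKM in NL, 0.146 to 0.481 in c-MYC and 3.98 to 9.50 in c-MYC/FOXO1AAA, also in the order of Spp1 and Sox9. Their defining markers Msln, Upk3b and Wt1 had c-MYC means of 0.0850, 0.123 and 0.0579 FPKM, and Wt1 was at 0 in c-MYC without c-MYC 3. For c-MYC/FOXO1AAA against c-MYC, the 2 tested mesothelial genes were higher, as were 1 of 11 macrophage genes, with 2 lower, 1 of 8 endothelial genes and 1 of 6 blood cell genes. Among all tested genes, 15.9% were called higher and 12.7% lower in this comparison. Most tested macrophage, endothelial and blood cell genes were not called in it. Macrophage genes summed to 307 to 526, 404 to 466 and 201 to 339 FPKM, where NL overlapped both tumor groups. Adgre1 was at 1.97, 2.36 and 1.72, Clec4f at 208, 4.47 and 17.9 and Csf1r at 8.51, 5.83 and 3.11 mean FPKM. Clec4f, Vsig4 and Marco were lowest in c-MYC like Spp1, and the other listed macrophage genes were not. Endothelial genes summed to 56.6 to 73.0, 11.6 to 19.6 and 29.6 to 43.7 FPKM, with Pecam1 at 4.35, 5.66 and 3.55, Cdh5 at 4.58, 4.58 and 25.9 and Stab2 at 3.29, 0.373 and 0.211. Cdh5, near equal in NL and c-MYC, was the largest term of this sum in c-MYC/FOXO1AAA. Pecam1, Stab2 and Kdr were lowest in c-MYC/FOXO1AAA, and Stab1, Clec4g, Lyve1, Oit3 and Tek in c-MYC. Blood cell genes summed to 1047 to 2066, 125 to 220.3 and 214 to 514 FPKM, most of it hemoglobin, and the B cell gene Cd79a, which like Cd24a was high in c-MYC/FOXO1AAA alone, was at 0.293 (0.121 without NL 1), 0.136 and 9.44. B cells make Cd24a too. The part of these cells in the levels of Spp1, Sox9, Krt19 and Cd24a was not tested.

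**Figure D5:**
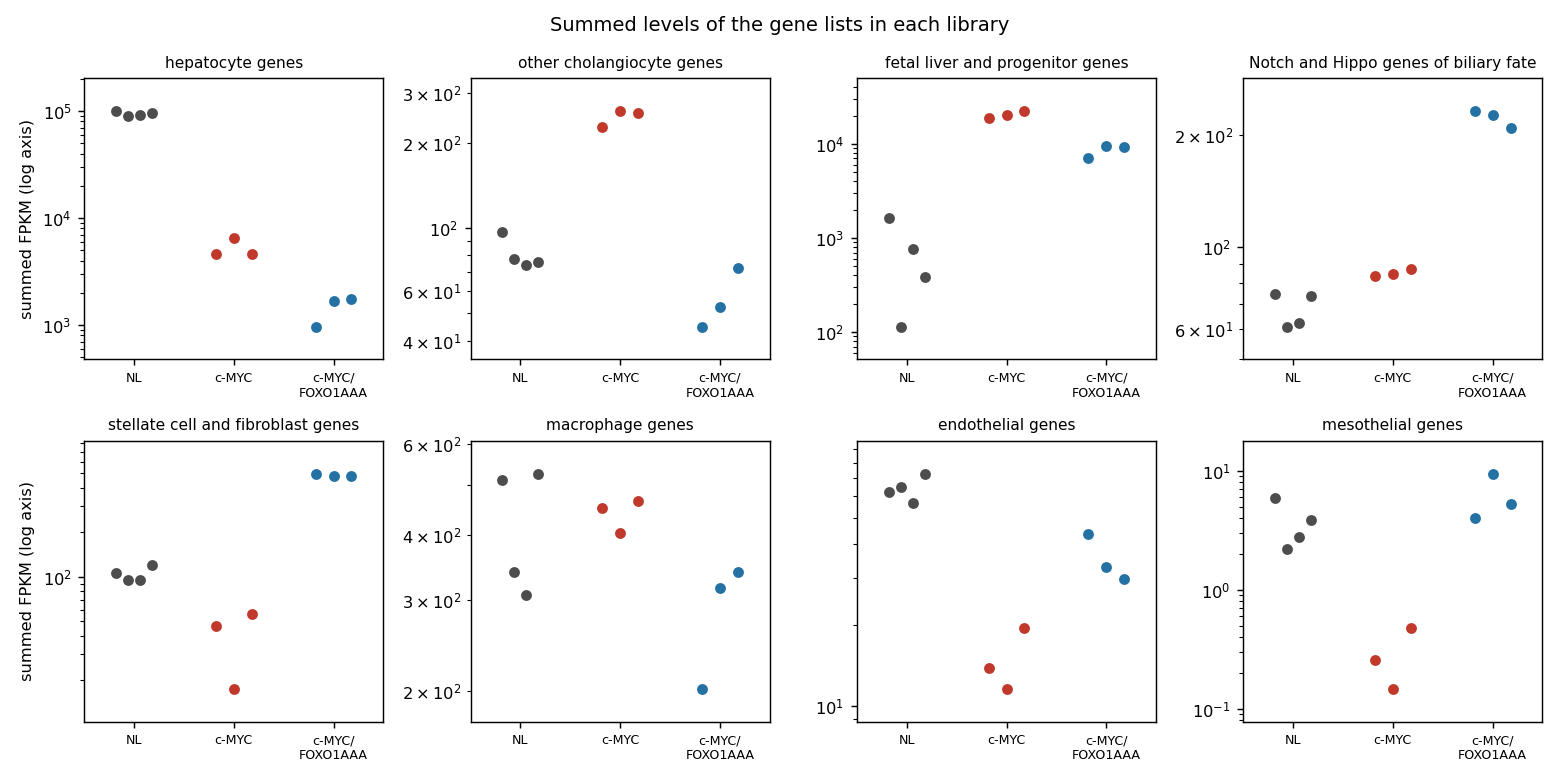
Summed FPKM, on a log axis, of 8 gene lists in each library of NL (grey), c-MYC (red) and c-MYC/FOXO1AAA (blue). The sums of stellate cell and fibroblast genes, mesothelial genes and endothelial genes are lowest in c-MYC. Cdh5 is the largest term of the endothelial sum in c-MYC/FOXO1AAA. The sum of other cholangiocyte genes is highest in c-MYC, where Ggt1 is its largest term. Hepatocyte genes step down from NL to c-MYC/FOXO1AAA.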

How the data were processed

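RNA sequencing of 10 mouse liver libraries was placed in groups by sample title (NL, n = 4; c-MYC, n = 3; c-MYC/FOXO1AAA, n = 3). The deposited table holds log2 FPKM made by the authors. According to the methods, they counted reads per gene and fitted a count model in R, while the processing notes name FastQC 0.11.7 and GRCm38. The aligner, counter, annotation and strand setting are not given in the sources used here. The deposited log2 values include a prior count of 2, which the authors' tool adjusts for library size. Of 17069 entries, 372 carry neither symbol nor value.

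Whole reads were recovered from the floor that the prior count leaves in each gene. For 16531 genes (99.01%), including all 10 members, 1 gene length made the values of all libraries whole to within 0.004 reads. Printed FPKM come from these reads without the prior count. Fold changes are on the deposited log2 scale, which understates changes of low genes.

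Genes with a deposited value of at least 1 FPKM, prior count included, in at least 3 libraries were kept (14017). Krt23 passed with NL 2, NL 4 and c-MYC/FOXO1AAA 2, the last at 0.963 FPKM without the prior count, and Sox9 did not pass. A means model over all 10 libraries was fitted with limma 3.58.1 (R 4.3.3, statmod 1.5.0), and its function treat (trend and robust on, 2-sided) was used with a threshold of 1.5-fold. Calls were made at an adjusted p under 0.05 (Benjamini-Hochberg, over all tested genes). The count model of the study was not used because the unit is not a count. The fit and the read recovery were also run on simulated data. Far fewer genes were changed there, so that run does not show how the fit behaves here. Where all libraries of a group held 3 reads or fewer, a ratio of reads with an exact 95% interval is given.

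The members and 12 gene lists (150 entries, 132 in the table) were chosen with earlier results of these data known. Genes were named from each list as its first 3 markers and up to 3 called genes per comparison with the largest change and a mean of at least 1 FPKM. Some listed genes are not reported here. Listed genes outside the table, such as Cftr, Prom1 and Krt5, were not analysed here. Positions are from GENCODE M21, matched by symbol. Genes overlap Krt7, Krt8 and Sox4 on the opposite strand and Spp1 on the same strand, and the pseudogene entry Krt8-ps held at most 14 reads. Alternatives were pseudocounts of 0.1 and 1 FPKM, no filter, a mean of at least 5 FPKM, 3 other scalings, no fold threshold, a threshold of 2, no trend, 2 groups only, a replicate block and leaving out each library.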

Additional observations from a re-analysis of the deposited data

How the results depend on the processing

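Across 588 values of the members' log2 fold changes under the alternatives, 555 kept their direction and their side of the threshold, 28 passed it newly, 3 no longer passed and 2 changed sign. Both sign changes were Krt18 in c-MYC versus NL, which was called under neither: 0.67 at the same FPKM total and 0.32 after quantile normalization. Among the 10 genes, the number lower in c-MYC versus NL went from 2 to 1 with a pseudocount of 1 FPKM, which removed Krt23, and to 1 with a mean of at least 5 FPKM, where Krt23 was no longer tested. At the same FPKM total, c-MYC/FOXO1AAA versus NL had 6 higher and 1 lower, beside 8129 higher and 2099 lower among all 14017 tested genes. With that total the type I and type II keratin sums were 122 and 129 FPKM in NL, 192 and 322 in c-MYC and 62.9 and 72.8 in c-MYC/FOXO1AAA. That scaling moves all genes of a library by 1 factor, so it shifts these sums by construction. With the replicate number as a block, c-MYC versus NL had 3 higher and 2 lower, c-MYC/FOXO1AAA versus c-MYC had 4 and 3, c-MYC/FOXO1AAA versus NL had 2 and 2, and all 27 calls of these genes were as without it. Deviations of libraries with the same number correlated between -0.0398 and 0.0272 over 9 pairs, so the numbers were not taken to pair samples. Of 1584 values of the gene lists under the alternatives, 181 moved, most often with a mean of at least 5 FPKM or at the same FPKM total. In c-MYC versus NL the Notch and Hippo genes went from 8 higher and 2 lower to 10 and 0 at the same FPKM total and to 5 and 1 with a pseudocount of 1 FPKM, and the other cholangiocyte genes from 6 and 2 to 7 and 1 and to 5 and 1.

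Few reads limit Krt19, Krt23 and Sox9 in c-MYC (22, 2 and 6 reads), and Krt7, Sox4 and Cd24a in NL (69, 68 and 59 reads). With 3 or 4 libraries a group, a missed threshold does not show that levels were equal.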
